A study of Arabidopsis thaliana with 8 samples.

Results

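The comparison described here is the response to NaCl of Arabidopsis thaliana seedlings that overexpress the rice serine hydroxymethyltransferase OsSHMT3, here called OE. Its members were chosen by the sample labels alone. They are the 4 arrays labelled OsSHMT overexpression out of 8 in the series, 2 from NaCl-treated seedlings (OE NaCl) and 2 from untreated ones (OE control), read over all 22746 probe sets that are not array controls. The other 4 arrays, 2 of wild-type NaCl and 2 of wild-type control, are used only to show where OE differed. Per the labels all seedlings were 14 days old, whole, and grown in hydroponic MS medium, and the NaCl groups received 150 mM for 24 h. A figure legend of the study gives another concentration. The transgene was driven by the pENTCUP2 promoter, a line of the T3 generation was used, and OE3 is named in one place of the methods and OE5 in another, so OE stands for 1 transgenic line of unsettled name. The methods describe RNA from a column kit in triplicate, whereas the labels name Trizol and 2 arrays per group were used here. The methods speak of biological replicates for the experiments in general and of replicated samples on the arrays, without saying which cultures the 2 arrays of a group come from. All p-values below measure the spread between these arrays, which may be technical.

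Salt acts on a plant through water deficit and through toxic ions. Seedlings answer with abscisic acid signalling and with protective proteins, among them the late embryogenesis abundant (LEA) proteins, hydrophilic proteins that also accumulate as seeds dry. Serine hydroxymethyltransferase interconverts serine and glycine and feeds one-carbon metabolism, and in leaves it belongs to photorespiration. Neither the rice transgene nor the Arabidopsis enzymes of this family were analysed here.

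Each value is a deposited log2 signal of a probe set (a set of short DNA probes for the same transcript), so a difference of 1 is a doubling of signal. OE NaCl was set against OE control with limma fitted to the 4 OE arrays only, and a probe set is called, that is, it rose or fell, at a Benjamini-Hochberg adjusted p under 0.05 over all 22746. After NaCl 180 probe sets were called, 0.791% of those tested. Of these 155 rose (0.681%) and 25 fell (0.110%). On all 180 both NaCl arrays lay beyond both control arrays, a property shared by 43.4% of all probe sets (23.1% with NaCl higher, 20.3% with NaCl lower). The rises ran from 1.59 to 4.62 on the log2 scale with a median of 2.31, and the falls reached 5.99 with a median log2 fold change of -2.61. Over all probe sets the median was 0.01. Of the called probe sets, 71 rises and 13 falls name 1 gene and the other 96 name no gene or several here. The limit stated in the methods, an unadjusted p under 0.05 with a log2 fold change over 2, was passed by 148 higher and 23 lower probe sets, together 0.752% of those tested, and 112 and 18 of these were also called.

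The number of calls rests on few arrays. Without OE NaCl array 1, 94 probe sets were called (70 higher, 24 lower), without OE NaCl array 2 only 3 (all lower), and without either OE control array 0. Each of these fits holds 3 arrays and takes the lone array of a group to vary like the other group. All 180 kept their direction each time. Without moderation of the variances 2 were called. With a spread shared by all 8 arrays 1642 were called (1111 higher, 4.88%, and 531 lower, 2.33%), all 180 among them. The OE replicates were farther apart than those of wild-type, so the shared spread may be too small for OE.

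**Figure D1:**
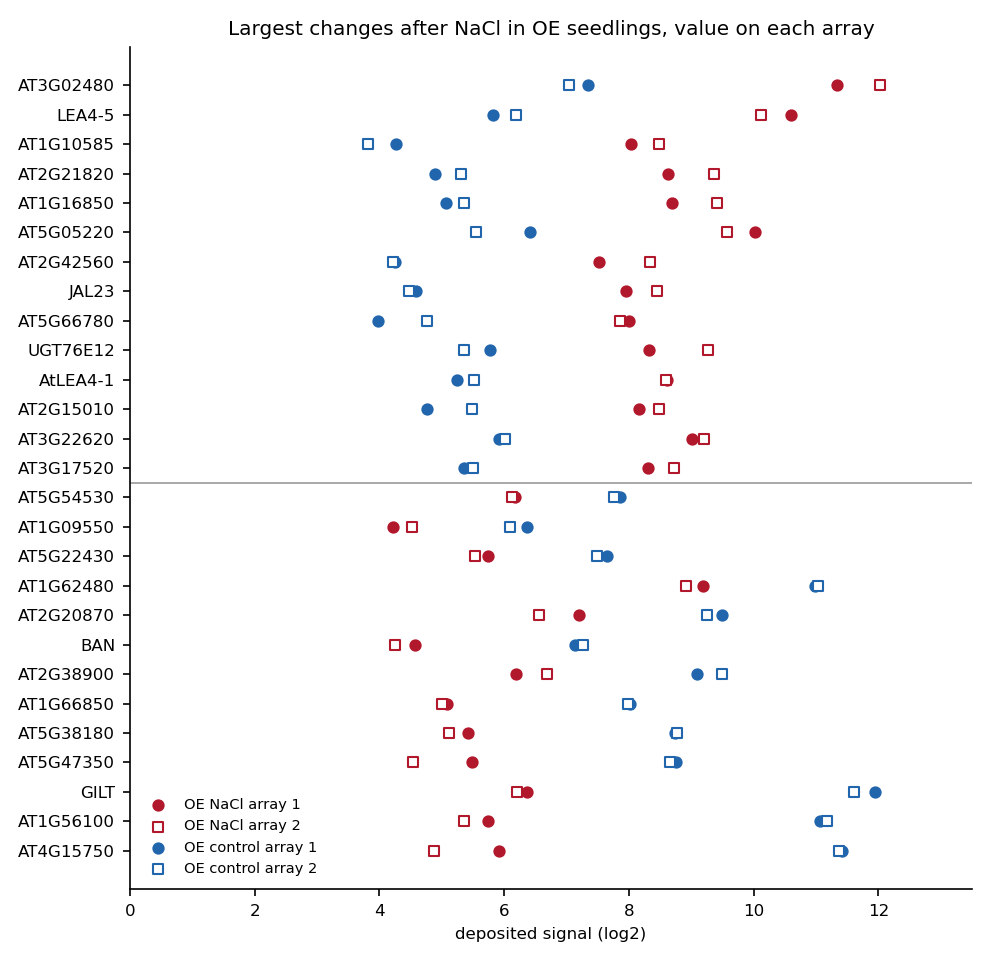
Deposited log2 signal on each of the 4 OE arrays for the 14 genes with the largest rises (above the line) and the 13 named genes that fell (below it). Circles are array 1 and squares array 2 of a group, red for NaCl and blue for control. In every row both NaCl arrays lie on the same side of both control arrays.

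Genes of LEA proteins were prominent among the named genes that rose. The largest rise of all, 4.62, was on a probe set that names no single gene here. AT3G02480, which the study lists as a LEA family protein (chromosome 3, 512220 to 513036, TAIR10.1), had log2 signals of 11.34 and 12.03 in OE NaCl, against 7.35 and 7.03 in OE control. Its log2 fold change of 4.49 (SE 0.30, adjusted p = 0.0214) was the largest of any named gene. LEA4-5 (chromosome 5, 2089445 to 2090430) had 10.59 and 10.11 in OE NaCl and 5.82 and 6.20 in OE control. AT2G42560 had 7.53 and 8.34 in OE NaCl and 4.25 and 4.21 in OE control. The control values of AT2G42560 lay below the array medians and its NaCl values above them. AtLEA4-1 had 8.61 and 8.60 in OE NaCl and 5.24 and 5.52 in OE control, the smallest gap between NaCl arrays among the LEA genes that rose. AT3G17520 had 8.31 and 8.73 in OE NaCl and 5.35 and 5.49 in OE control. A listed gene counts as measured here only where a probe set names it alone. The others may still be on the array, on probe sets that name no gene or several here. Of 23 measured members of 30 listed LEA genes, 6 rose and 0 fell, where 0.681% of all probe sets rose and 0.110% fell. The median log2 fold change of the 23 was 0.84 (0.01 over all probe sets). The dehydrin LEA (AT2G21490), with 8.08 and 8.21 in OE NaCl and 5.88 and 4.92 in OE control, had a log2 fold change of 2.75 and just missed the limit (adjusted p = 0.0519). Its control arrays were 0.96 apart. AT5G27980 had the lowest log2 fold change of the list, -0.83 (adjusted p = 0.205). Without OE NaCl array 1, 5 of the 6 calls remained and without array 2 or either control array 0 (adjusted p up to 0.0864 without NaCl array 2 and 0.354 without control array 1).

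The other genes with the largest rises have mostly no annotated role in the tables used here. AT1G10585 had 8.03 and 8.48 in OE NaCl, against 4.27 and 3.81 in OE control, so it rose by 4.22 (SE 0.28, adjusted p = 0.0214). AT2G21820 had 8.63 and 9.36 in OE NaCl and 4.89 and 5.31 in OE control. AT1G16850 had 8.69 and 9.41 in OE NaCl and 5.07 and 5.35 in OE control. On each of these 3 genes the higher NaCl value was that of array 2. AT5G05220 went the other way, with 10.03 and 9.57 in OE NaCl and 6.42 and 5.54 in OE control. JAL23, a jacalin-related lectin, had 7.96 and 8.45 in OE NaCl and 4.59 and 4.47 in OE control, so it rose by 3.67 (SE 0.25, adjusted p = 0.0214). UGT76E12, a UDP-glucosyltransferase, had 8.32 and 9.27 in OE NaCl and 5.78 and 5.36 in OE control, and its NaCl arrays were the farthest apart of the 14. Its neighbour in the family, UGT76E11, had 6.49 and 8.39 in OE NaCl and 5.07 and 5.44 in OE control and was not called (adjusted p = 0.278). AT5G66780, AT2G15010 and AT3G22620 had log2 fold changes of 3.56, 3.19 and 3.14. All 14 adjusted p-values lay between 0.0214 and 0.0404, 11 of the 14 stayed called without OE NaCl array 1, and 0 without array 2 or without either control array (adjusted p up to 0.0864, 0.377 and 0.358).

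Smaller rises included several single genes of known function. BSMT1, a methyltransferase that makes methyl salicylate, had 7.48 and 7.51 in OE NaCl and 4.42 and 4.68 in OE control, so it rose by 2.95 (SE 0.21, adjusted p = 0.0244). JRG21, named as a jasmonate-regulated gene, had 10.09 and 9.93 in OE NaCl and 6.88 and 7.18 in OE control. PUB19, a U-box ubiquitin ligase, had 10.19 and 10.57 in OE NaCl and 7.44 and 7.67 in OE control. The chitinase gene CHI had 10.72 and 10.59 in OE NaCl and 8.78 and 8.75 in OE control. NAI2, a component of the endoplasmic reticulum bodies of Brassicaceae, had 7.74 and 7.96 in OE NaCl and 6.12 and 6.16 in OE control. The myrosinase-type glucosidase of these bodies, PYK10, had 9.19 and 9.74 in OE NaCl and 7.74 and 7.37 in OE control and did not pass (log2 fold change 1.92, adjusted p = 0.0709). On none of these genes did the NaCl and control arrays overlap.

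The falls were fewer and larger. AT4G15750 (chromosome 4, 8967519 to 8968615) had log2 signals of 5.92 and 4.87 in OE NaCl, against 11.41 and 11.37 in OE control, so it fell by 5.99 on the log2 scale (SE 0.38, adjusted p = 0.0214). AT1G56100 (chromosome 1, 20980369 to 20984115) had 5.75 and 5.35 in OE NaCl and 11.06 and 11.18 in OE control, so it fell by 5.57 (SE 0.23, adjusted p = 0.0144). GILT, a gene for a thiol reductase (chromosome 4, 7583239 to 7584759), had 6.36 and 6.21 in OE NaCl and 11.95 and 11.61 in OE control. These 3 genes were among the bright probe sets in OE control, above the 95th percentile of 10.3 and 10.2 of its arrays, and below or near the array median on both NaCl arrays. AT5G47350 had 5.49 and 4.54 in OE NaCl and 8.76 and 8.66 in OE control. AT5G38180 had 5.43 and 5.11 in OE NaCl and 8.74 and 8.77 in OE control. AT1G66850 had 5.08 on OE NaCl array 1 and a value lower by 0.07 on array 2, against 8.02 and 7.99 in OE control. The NaCl values of AT1G66850 were thus close, whereas those of AT4G15750 were 1.05 apart, with array 2 the lower. BAN, which encodes the anthocyanidin reductase of seed coat tannin synthesis, had 4.56 and 4.25 in OE NaCl and 7.13 and 7.27 in OE control, so it fell by 2.79 (SE 0.22, adjusted p = 0.0259). DFR, the enzyme upstream of it in the flavonoid pathway, had 5.86 and 5.14 in OE NaCl and 6.80 and 6.90 in OE control and did not pass (adjusted p = 0.178). Of 6 measured genes of flavonoid and anthocyanin synthesis BAN was the 1 called. In this list 4 log2 fold changes were positive and 2 negative, with a median of 0.42. AT2G38900, AT2G20870, AT1G62480, AT5G22430, AT1G09550 and AT5G54530 fell by 2.85, 2.50, 1.95, 1.93, 1.86 and 1.66 on the log2 scale. Without OE NaCl array 1, 8 of the 13 stayed called, without array 2 AT4G15750, AT1G56100 and GILT, and without either control array 0 (adjusted p up to 0.0649, 0.129, 0.479 and 0.377).

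The called changes were seen on both NaCl arrays. Among the 155 rises the 2 NaCl arrays lay within 0.5 of each other for 140 probe sets, with a median gap of 0.16 and a largest gap of 0.96. Among the 25 falls 17 lay within 0.5, with a median gap of 0.31 and a largest of 1.05. The change from the mean of the controls was larger on array 2 for 108 of the rises and 20 of the falls. A small gap between replicate arrays is part of what the test selects, so these gaps describe the called probe sets and are not evidence of agreement elsewhere.

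**Figure D2:**
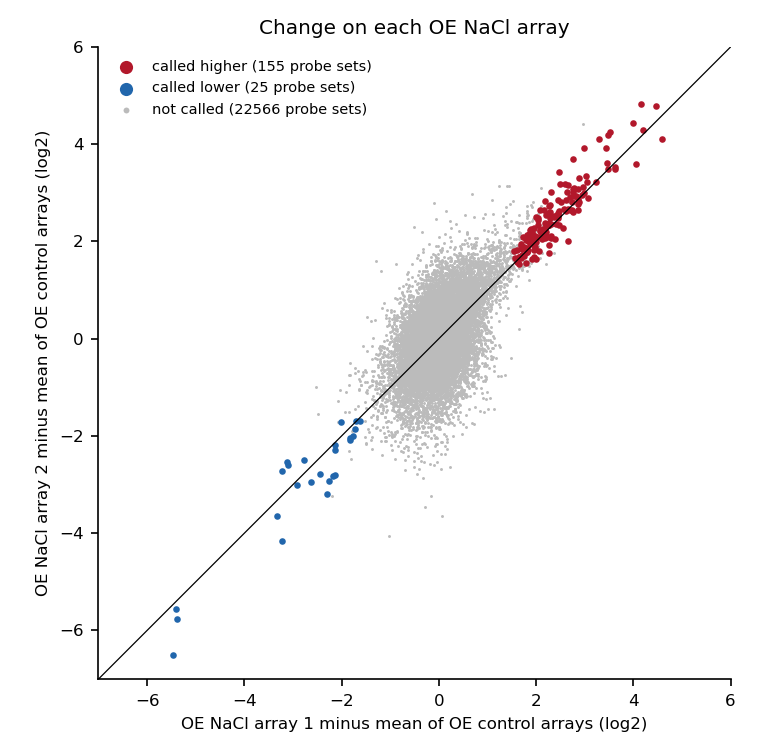
Change of each of 22746 probe sets from the mean of the 2 OE control arrays, on OE NaCl array 1 (horizontal) and array 2 (vertical), both in log2. The 155 called rises (red) and 25 called falls (blue) lie near the line of equal change, and the grey cloud of the rest is taller than it is wide.

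Over all probe sets, the called ones included, the NaCl arrays differed from each other. Counting probe sets more than 1 away from the control mean and beyond both control arrays, 635 were higher and 283 lower on array 1, and 1719 were higher and 1159 lower on array 2. Only 544 of the higher and 136 of the lower ones were shared, which is 85.7% and 48.1% of those of array 1 and 31.6% and 11.7% of those of array 2. Array 1 exceeded array 2 by over 1 on 944 probe sets and fell short of it by over 1 on 800, against 405 and 345 between the 2 control arrays. Of the 944 probe sets 1 was called, and of the 800 none. With each array centred on its median the counts were 1640 and 371.

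The genes with the widest gaps are given by each array, among those whose control arrays were under 0.5 apart. AT5G23405 had 4.04 and 6.59 in OE NaCl and 4.24 and 4.52 in OE control, with a mean of 6.37 in wild-type NaCl and 6.79 in wild-type control. AT2G18740 had 6.22 and 8.38 in OE NaCl and 6.57 and 6.29 in OE control, and its wild-type means were 8.50 and 8.33. PPR336, a pentatricopeptide repeat protein, had 5.08 and 7.04 in OE NaCl and 4.96 and 5.30 in OE control, with wild-type means of 7.84 and 7.41. On these 3 genes array 1 sat with the OE controls and array 2 near wild-type. On the next 3 genes array 2 was the lower and again lay near wild-type, whereas array 1 lay above both OE controls. PLIM2a, a LIM domain protein, had 6.47 and 4.05 in OE NaCl and 5.60 and 5.97 in OE control, with wild-type means of 4.57 and 4.40. AT5G41730 had 6.34 and 3.90 in OE NaCl and 5.96 and 5.76 in OE control, with wild-type means of 3.76 and 3.88. AT2G02550 had 5.94 and 3.47 in OE NaCl and 5.02 and 4.82 in OE control, with wild-type means of 3.47 and 3.55. None of the 16 genes with the widest gaps was called.

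Counted over the probe sets that differed by more than 1, wild-type NaCl lay nearer to OE NaCl array 2 for 878 of the 944 higher on array 1 and for 688 of the 800 higher on array 2. OE NaCl array 2 also had the distribution of the wild-type arrays. Its median was 6.32 and its 5th percentile 3.54, whereas OE NaCl array 1 and the OE controls had medians of 6.10, 6.00 and 6.08 and 5th percentiles of 3.72, 3.74 and 3.73. On 3961 probe sets with a wild-type mean under 4 the median signal was 3.98 on OE NaCl array 1, 3.70 on array 2, and 4.07 and 3.99 on the OE controls, against 3.65 to 3.72 on the wild-type arrays. The SD over probe sets of the difference from the OE control mean was 0.48 for array 1 and 0.69 for array 2, and from the wild-type NaCl mean 0.76 and 0.56. On other measures array 2 lay with OE. On 22 probe sets where both OE controls and OE NaCl array 1 lay over 3 below every wild-type array, array 2 lay below them too on all 22, by over 3 on 20. On 4 probe sets where those OE arrays lay over 3 above every wild-type array, array 2 lay above on 3. The array control for 25S ribosomal RNA was at 12.30 and 12.43 in OE NaCl, 12.23 and 12.35 in OE control, and 9.50 to 9.62 in wild-type. On a further measure array 2 lay between OE and wild-type. The control probe sets for Arabidopsis GAPDH gave a 3′ minus 5′ difference of 0.52 and 1.74 in OE NaCl, 0.24 and 0.24 in OE control, and 2.77 to 3.33 in wild-type. Other controls of this kind did not place array 2 between. A second GAPDH control gave 0.57 and 0.64 in OE NaCl, 0.66 and 0.56 in OE control, and 1.23 to 1.31 in wild-type. Actin gave 2.73 and 2.34 in OE NaCl, 2.32 and 2.44 in OE control, and 4.12 to 4.49 in wild-type. On both of these array 2 lay with OE. The ubiquitin differences overlapped between the OE and wild-type arrays. The part of these array differences in the counts above was not tested.

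**Figure D3:**
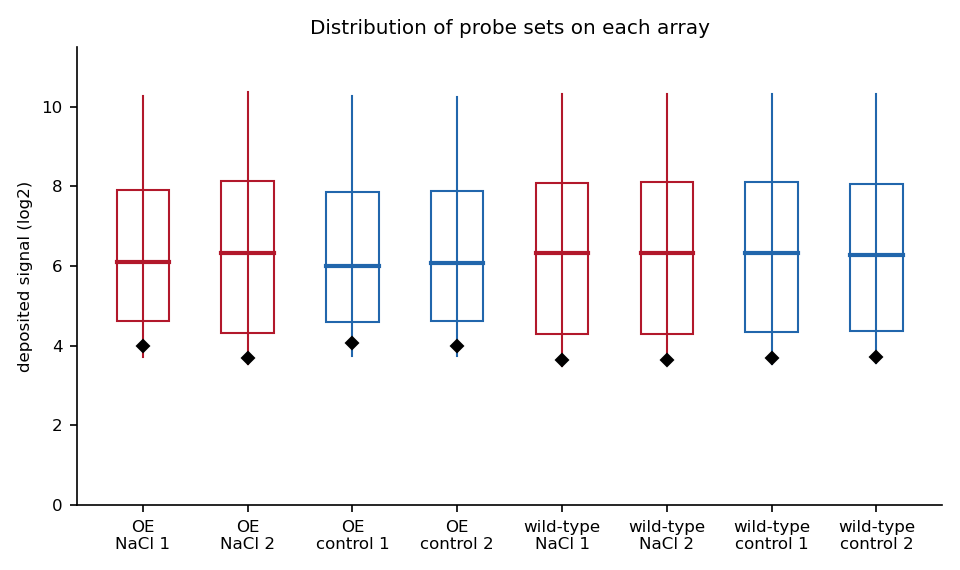
Deposited log2 signal of 22746 probe sets on the 8 arrays, red for NaCl and blue for control. Boxes span the quartiles with the median as a bar, lines run from the 5th to the 95th percentile, and diamonds are the median of the 3961 probe sets with a wild-type mean under 4. OE NaCl array 2 has the longer box and lower diamond of the wild-type arrays.

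The same treatment of wild-type seedlings shows which of these changes are shared. In a limma fit of the 4 wild-type arrays 12.2% of probe sets were called higher and 13.7% lower after NaCl. Of the 155 that rose in OE, 90 (58.1%) also rose in wild-type, 45 (29.0%) fell and 20 were not called. The 90 are 3.23% of the wild-type rises. Of the 25 that fell in OE, 13 (52.0%) also fell in wild-type, 1 rose and 11 were not called. The difference between the genotypes was tested as an interaction on all 8 arrays, with a spread shared by the 4 groups. The OE replicates were farther apart than those of wild-type, so its p-values may be too small. With weights by genotype 364 probe sets passed, and without them 375, 1.65% of all. That count was 2294 without OE NaCl array 1, and 126 and 122 without wild-type NaCl array 1 and 2 and fell to a like size without wild-type control array 1 or 2 (128 without array 2). Among the rises, 82 had a more positive response in OE and 1 a less positive one. Among the falls, 18 had a more negative response in OE. These rises and falls were chosen by their change in OE, which is part of the interaction, so passing it was favoured. Grouping by the wild-type result was chosen after the values were seen.

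**Figure D4:**
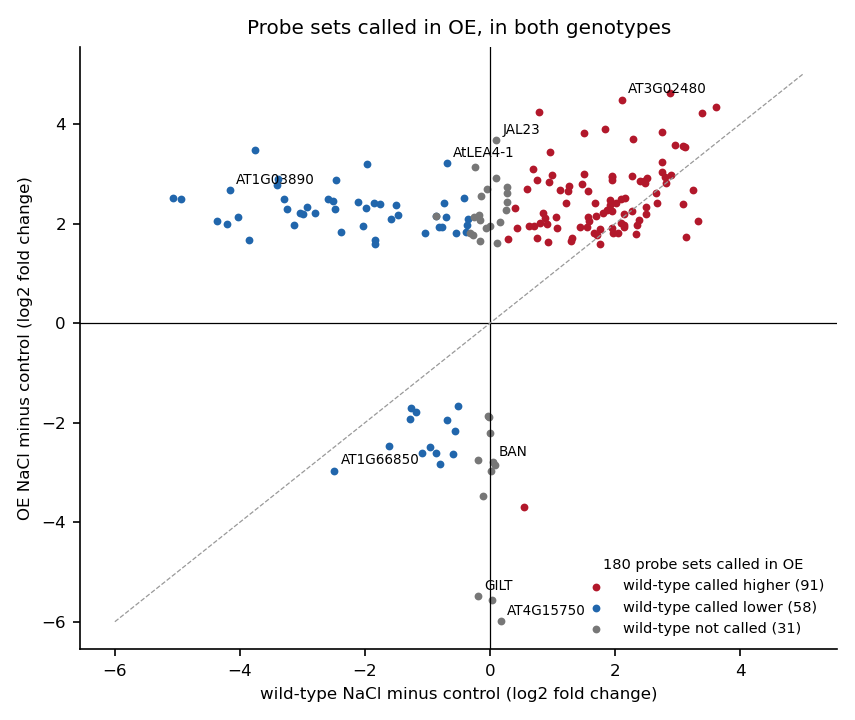
Log2 fold change after NaCl in OE (vertical) against wild-type (horizontal) for the 180 probe sets called in OE, coloured by the wild-type call. The dashed line marks equal change. Rises in OE stretch from falls of over 4 in wild-type to rises of over 3, and GILT and AT4G15750 lie near 0 in wild-type.

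Where both genotypes rose, the median levels of the 90 probe sets were 8.99 in OE NaCl and 6.51 in OE control, and 9.16 in wild-type NaCl and 7.39 in wild-type control. For 72 of these 90 the responses were not called different, and a p over the limit does not show that they were alike. LEA4-5 had 10.78 and 10.76 in wild-type NaCl and 7.18 and 7.14 in wild-type control, and the interaction was 0.74 (SE 0.28, adjusted p = 0.343). AT3G02480 had 11.28 and 11.30 in wild-type NaCl and 9.09 and 9.28 in wild-type control. Its NaCl level in wild-type was thus close to that in OE and its control level higher, and its response was larger in OE by 2.39 (SE 0.34, adjusted p = 0.0185, up to 0.132 without wild-type control array 2). PRX52, a class III peroxidase, had 8.14 and 8.24 in OE NaCl and 6.00 and 5.73 in OE control, against 5.81 and 5.77 in wild-type NaCl and 5.36 and 5.42 in wild-type control. AT2G35730 was the probe set whose rise was smaller in OE, with 6.13 and 6.09 in OE NaCl and 4.51 and 4.26 in OE control, against 7.58 and 7.56 in wild-type NaCl and 4.47 and 4.40 in wild-type control. Its interaction of -1.41 (adjusted p = 0.0171) stayed called in 4 of 8 fits with an array left out and reached 0.16 without wild-type NaCl array 1.

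Of the 45 probe sets that rose in OE and fell in wild-type, 20 name 1 gene, and all 45 passed the interaction test. They were grouped by opposite calls on the same arrays, so passing was largely set by the grouping and is no further evidence. Their median levels were 9.27 in OE NaCl and 6.95 in OE control, and 5.78 in wild-type NaCl and 8.43 in wild-type control. The OE control level thus lay below that of wild-type control, an order that this grouping favours. Genes of seed storage and oil bodies stood in this group. AT1G03890, listed here among seed storage proteins, had 9.97 and 9.92 in OE NaCl and 7.43 and 7.10 in OE control. In wild-type it had 4.30 and 4.34 in NaCl and 8.36 and 8.59 in control, and the interaction was 6.84 (SE 0.23, adjusted p = 5.16e-05). PAP85, a vicilin-like seed storage protein, had 10.29 and 10.45 in OE NaCl and 7.99 and 7.86 in OE control, against 6.58 and 6.98 in wild-type NaCl and 9.28 and 9.30 in wild-type control. AT3G01570, listed among the oleosins that coat oil bodies, had 10.73 and 10.50 in OE NaCl and 8.98 and 8.90 in OE control. It lost its call under quantile normalization, median centring and robust eBayes. OLEO3, another oleosin, had 10.54 and 10.36 in OE NaCl and 8.91 and 8.98 in OE control and did not pass (adjusted p = 0.0564). Of 21 listed genes of embryo and seed storage only these 4 have a probe set that names them alone here. The others may be on probe sets that name no gene or several. Of the 4 genes 3 rose and 0 fell, where 0.681% of all probe sets rose. The median level of the 4 was 10.41 on both OE NaCl arrays and 8.45 and 8.38 in OE control. In wild-type it was 7.05 and 7.26 in NaCl and 9.19 and 9.24 in control, in seedlings labelled as 14 days old. Outside the list, CYP78A9, a cytochrome P450 known from fruit and seed growth, had 7.93 and 7.99 in OE NaCl and 5.71 and 5.80 in OE control, against 5.79 and 5.77 in wild-type NaCl and 8.81 and 8.81 in wild-type control. ATOEP16-2, a channel of the outer plastid envelope, had 7.43 and 7.39 in OE NaCl and 5.06 and 4.99 in OE control, against 4.96 and 4.96 in wild-type NaCl and 6.86 and 6.56 in wild-type control. AtLEA4-1 belongs to this group as well, with 7.81 and 7.75 in wild-type NaCl and 8.48 and 8.46 in wild-type control. Of the 20 named genes, 6 stayed called in OE without NaCl array 1 and 0 without array 2 or either control array (adjusted p up to 0.127 without NaCl array 2 and 0.504 without control array 1). In whole seedlings a change in the number of cells of a kind and a change of RNA per cell cannot be told apart.

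JAL23 stood among the 20 probe sets with a rise in OE and no call in wild-type, where it had 4.90 and 4.96 in NaCl and 5.03 and 4.63 in control. Its OE control values lay at that level too, and only its OE NaCl arrays stood above it. AT3G22620 had the same form, with 9.01 and 9.20 in OE NaCl and 5.92 and 6.02 in OE control, against 5.79 and 5.86 in wild-type NaCl and 5.71 and 6.42 in wild-type control. AT1G54020 had 8.32 and 8.49 in OE NaCl and 5.82 and 5.90 in OE control, against 5.84 and 5.83 in wild-type NaCl and 5.99 and 5.96 in wild-type control. All 20 passed the interaction test, which choosing a rise in OE without a call in wild-type on the same arrays favours. Of the 8 that name 1 gene, 6 stayed called in OE without NaCl array 1 and 0 without array 2 or either control array (adjusted p up to 0.139 and 0.418).

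The largest falls had no counterpart in wild-type. AT4G15750 had 11.78 and 11.80 in wild-type NaCl and 11.51 and 11.73 in wild-type control, and its interaction was -6.16 (SE 0.43, adjusted p = 0.000874). AT1G56100 had 11.52 and 11.56 in wild-type NaCl and 11.53 and 11.49 in wild-type control. GILT had 12.99 and 13.05 in wild-type NaCl and 13.20 and 13.23 in wild-type control. BAN had 8.68 and 8.59 in wild-type NaCl and 8.72 and 8.46 in wild-type control. For these 4 genes OE NaCl was the lowest of the 4 groups. AT5G38180 and AT2G38900 had the same form, with 9.52 and 10.53 on the first wild-type NaCl array. AT1G66850 did not share it, since it fell in wild-type too, to 5.84 and 5.91 in NaCl against 8.35 and 8.36 in control, and its interaction was -0.48 (adjusted p = 0.31). AT5G47350 was the 1 gene that fell in OE and rose in wild-type, where it had 9.31 and 9.21 in NaCl and 8.66 and 8.78 in control. The interactions of AT4G15750, AT1G56100, GILT, BAN, AT5G38180, AT2G38900 and AT5G47350 stayed called with each of the 8 arrays left out.

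Genes were also read by list. Of 62 lists 49 had a measured member, and 13 of these held a called one. The study's supplementary list names genes induced in OE, in wild-type or in both. It was chosen on these samples and is not independent evidence. Of its 17 measured members of 39, 12 rose in OE and 0 fell (0.681% and 0.110% of all probe sets), with a median log2 fold change of 2.66. AT4G28140, which the study names ERF054, an ethylene response factor, had 10.27 and 10.01 in OE NaCl and 7.79 and 7.65 in OE control (log2 fold change 2.41, SE 0.22, adjusted p = 0.0283). LTI30, a cold- and drought-induced dehydrin, had 11.25 and 11.13 in OE NaCl and 9.09 and 8.97 in OE control. AT5G38710, listed by the study as a proline dehydrogenase, had 8.12 and 8.83 in OE NaCl and 5.64 and 5.98 in OE control. SWEET4, a sugar transporter, had 7.93 and 8.33 in OE NaCl and 5.14 and 5.81 in OE control. AT3G21670 (NPF6.4), of the nitrate and peptide transporter family, had 9.34 and 9.83 in OE NaCl and 7.01 and 7.34 in OE control. It rose in wild-type too, by 1.21, and its interaction was not called (adjusted p = 0.122). AT4G28140, LTI30, AT5G38710, SWEET4, AT2G42560 and PRX52 are listed by the study for OE only. All of them were also called higher in wild-type here, by an adjusted p limit without a minimum size. The study's list kept only genes that changed by more than 2 on a log scale. In wild-type AT4G28140 (2.02) and AT2G42560 (2.29) rose by more than that, and LTI30, AT5G38710, SWEET4 and PRX52 by less. For these last genes a listing for OE only is thus no contradiction. Only PRX52, which rose by 0.40 in wild-type, had a called interaction among the genes listed for OE only that also rose in wild-type (1.92, adjusted p = 0.00493). It lost that call in some of the fits with an array left out. For the others the wild-type log2 fold changes were 1.12 to 2.29. Their interactions were not called (adjusted p from 0.101 to 0.501), which does not show that the responses were alike. Members that did not pass were LEA, AT2G38905 with 8.20 and 8.56 in OE NaCl and 5.31 and 6.14 in OE control (adjusted p = 0.0502), SWEET2, WRKY6 and OSM34. The study lists SWEET2, WRKY6 and OSM34 for wild-type only, and their log2 fold changes were 1.68, 0.63 and -0.09 in OE and 2.04, 1.83 and 1.90 in wild-type, where all 3 rose. Without OE NaCl array 1, 8 of the 12 stayed called and without array 2 or either control array 0 (adjusted p up to 0.119 without NaCl array 2 and 0.445 without control array 1).

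**Figure D5:**
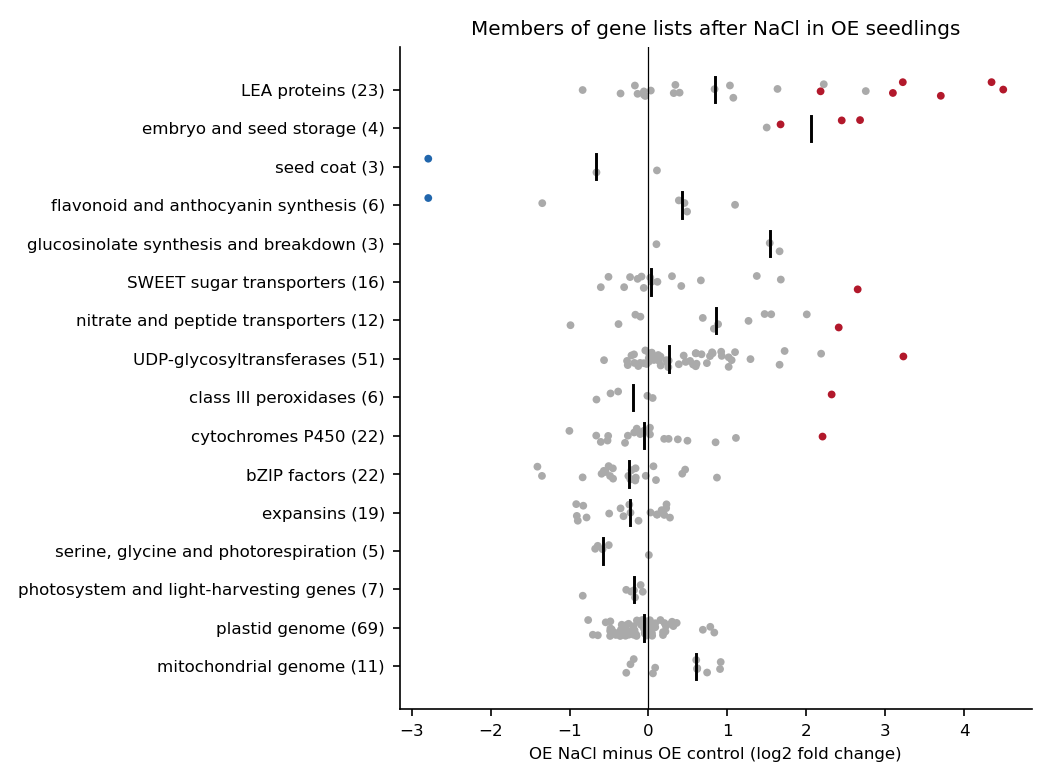
Log2 fold change after NaCl in OE of the measured members of 16 gene lists, 1 point per gene, with the number measured in brackets and the list median as a black bar. Red points rose, blue points fell and grey points did not pass the test. Called points lie in the upper 10 lists, except in the list of glucosinolate genes, and none lies in the 6 lists below cytochromes P450.

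In the other lists few members were called, and with 0.791% of all probe sets called a single call or none in a list this size is no result about the list. Among the SWEET sugar transporters SWEET4 was the 1 called of 16, with a list median of 0.03. Among the UDP-glycosyltransferases UGT76E12 was the 1 called of 51, with a median of 0.26. Of 12 nitrate and peptide transporters NPF6.4 rose and the median was 0.86. In this family the glucosinolate transporter GTR2 had 9.48 and 9.65 in OE NaCl and 8.17 and 8.02 in OE control (log2 fold change 1.47, adjusted p = 0.0624), and GTR1 had 8.39 and 9.19 in OE NaCl and 6.29 and 7.28 in OE control (adjusted p = 0.173). BCAT4, an aminotransferase of methionine-derived glucosinolate synthesis, had 10.41 and 10.65 in OE NaCl and 8.98 and 9.01 in OE control. Its log2 fold change of 1.54 missed the limit (adjusted p = 0.057) and passed it under quantile normalization, with an intensity trend, with either filter and in the fit of 8 arrays. In wild-type BCAT4 fell by 1.17 on the log2 scale, and its interaction of 2.71 was called (SE 0.19, adjusted p = 0.000874).

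Lists of photosynthesis and of the chloroplast held no call, which at 0.791% called overall says nothing particular about lists of a few genes. The 7 measured light-harvesting and photosystem genes of the nucleus all had negative log2 fold changes, from -0.83 to -0.07, with a median of -0.18. LHCB4.1, an antenna protein of photosystem II, had 13.29 and 13.26 in OE NaCl and 13.41 and 13.33 in OE control. The Calvin cycle enzyme PRK had 11.15 and 11.02 in OE NaCl and 11.85 and 12.01 in OE control (adjusted p = 0.212), and its arrays did not overlap. The 5 measured genes of serine, glycine and photorespiration, the pathway of the transgene's enzyme, had a median log2 fold change of -0.58 and none was called. HPR, the hydroxypyruvate reductase of photorespiration, had 11.82 and 11.79 in OE NaCl and 12.31 and 12.31 in OE control (log2 fold change -0.50, SE 0.20, adjusted p = 0.412). The 69 plastid-encoded genes had a median of -0.06, and of -0.26 on NaCl array 1 and 0.07 on array 2. In the fit of 8 arrays 3 of the 5 genes of photorespiration and 2 of the 3 genes of the Calvin cycle were called lower. That fit called 2.33% of all probe sets lower, and its spread, shared with wild-type, may be too small for OE.

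Of the transcription factor families, 22 of 60 listed bZIP, 7 of 72 WRKY and 1 of 100 NAC factors had a probe set naming them alone. None of these was called, again beside 0.791% of all probe sets, with medians of -0.24, -0.15 and 0.06. Of 19 expansins and 10 xyloglucan endotransglucosylases, which loosen the cell wall, 0 were called, with medians of -0.23 and -0.10. Of 15 auxin response genes 0 were called. Markers of other tissues were measured in part, and in the lists of leaf mesophyll, root and anther markers none was called. The 4 leaf mesophyll markers had median levels of 12.55 and 12.65 in OE NaCl and 12.73 and 12.72 in OE control, among the brightest signals of the arrays. Of the 3 measured root markers the brightest was PYK10, whose values are given above (log2 fold change 1.92, adjusted p = 0.0709). PYK10 passed in the fit of 8 arrays, which called 4.88% of all probe sets higher. The other root markers, the root hair expansins EXPA7 and EXPA18 lay at or below 5.14 in OE NaCl and 5.56 in OE control, under the array medians. The 2 anther markers lay near 4 on every OE array. Lists of abscisic acid signalling, aquaporins, MYB and AP2/ERF factors and sulfate transporters were not analysed here.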

How the data were processed

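Per the authors, RNA was labelled with the 3′ IVT Express kit, hybridized to Affymetrix ATH1 arrays and read with Affymetrix Expression Console, and the methods also name an R package. No version or summarization method is given in the sources used here. The deposited values, made by the authors, are on a log2 scale and were used as they stand. Of 22810 probe sets, 64 array controls were left out. Of 22746 tested, 13513 name 1 gene (13502 matched to the TAIR10.1 table), 503 several and 8730 none here.

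OE NaCl was compared with OE control in limma 3.58.1 (R 4.3.3, lmFit and eBayes) on the 4 OE arrays, wild-type NaCl with its control on the 4 wild-type arrays, and the interaction on all 8. Benjamini-Hochberg adjustment ran over all probe sets tested. Coordinates are those of TAIR10.1. The named genes were the 14 largest rises and falls among called probe sets of 1 gene whose arrays do not overlap (13 falls met this), up to 3 called members of each list per direction or else its brightest member, the 8 widest gaps between the NaCl arrays each way, and the genes of the study's supplementary list. Where probe sets share a gene, the brightest stands for it. JRG21, PUB19, CHI, NAI2, ATOEP16-2, AT1G54020, AT2G35730, AT5G27980, OLEO3, DFR, PRK, GTR1, GTR2, EXPA7 and EXPA18 are given besides and were picked after their values were seen. Members and lists were chosen with earlier results of these data known. Genes with near-identical sequence may share a probe set. The procedure was tested on simulated data for the direction and mean size of its estimates. A first such test with smaller changes recovered none of them, and the sizes were then raised. No rise under 1.59 was called in OE, so a probe set that was not called may still have changed. Alternatives were other samples in the fit, moderation, normalization, filters, weights, a replicate block, arrays left out and other limits. The number of arrays limits the precision.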

Additional observations from a re-analysis of the deposited data

Results flagged for a closer look

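Of the 14 largest rises and 13 falls in OE, 17 had an NaCl response that differed from that of wild-type. The test was the interaction in limma (adjusted p under 0.05 over all probe sets, n = 2 arrays per group, spread shared by the 4 groups). Over all probe sets 1.65% passed it. The genes were chosen by their change in OE, which is part of the interaction, so passing was favoured. The response was more positive in OE for AT2G15010 (interaction 5.16 on the log2 scale), AtLEA4-1 (3.91), JAL23 (3.57), AT3G22620 (3.37), AT3G17520 (2.41), AT3G02480 (2.39) and AT2G21820 (2.05). It was more negative in OE for AT4G15750 (-6.16), AT1G56100 (-5.60), GILT (-5.30), AT5G47350 (-4.23), AT5G38180 (-3.38), AT2G38900 (-2.93), BAN (-2.83), AT1G09550 (-1.83), AT1G62480 (-1.27) and AT5G54530 (-1.15). On leaving out each of the 8 arrays in turn 12 of the 17 stayed called every time. The exceptions were AT3G02480 (adjusted p up to 0.132, without wild-type control array 2), AT2G21820 (0.236, without wild-type NaCl array 1), AT5G54530 (0.258, without wild-type NaCl array 1), AT1G09550 (0.173, without wild-type NaCl array 2) and AT1G62480 (0.232, without wild-type NaCl array 2).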

How the results depend on the processing

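The count of 180 called probe sets (155 higher, 25 lower) was within 1.5 times of itself under array weights, robust eBayes, quantile normalization, median centring, a filter at the 25th percentile and the replicate block. It was 1642 (1111 higher, 531 lower) in the fit of all 8 arrays, 776 (572 and 204) with an intensity trend, 497 (414 and 83) with a filter at the median and 2 (1 and 1) without moderation, and ran from 0 (without either OE control array) to 94 (without OE NaCl array 1) with an array left out, 0 to 70 for rises and 0 to 24 for falls. The 171 probe sets at the limit of the methods became 1126 with a fold limit of 1, and ran from 146 (without OE NaCl array 2) to 318 (without OE NaCl array 1). The interaction count of 375 was 185 without moderation and ran from 122 (without wild-type NaCl array 2) to 2294 (without OE NaCl array 1). The 944 and 800 probe sets higher on NaCl array 1 and on array 2 became 56 and 23 at a limit of 2, and 1640 and 371 after median centring.

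The replicate number of the titles as a block gave 246 calls (210 higher, 36 lower) and 286 interactions. It was not taken as pairing, since same-numbered OE arrays deviated together with an r of only 0.18 over probe sets and there are 2 pairs. None of the 76 named genes reversed under these alternatives. Of the 38 called, 38 lost the call without moderation, 14 and 35 without OE NaCl array 1 and 2, and 38 without either control array. The median of 1 of 49 lists, the mitochondrial genome, moved by 0.2 or more when probe sets of a gene were averaged. The causes were not tested.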
